A study of Mus musculus with 6 samples.

Results

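The melanocyte genes described here are 10 genes that mark pigment cells, Tyr, Tyrp1, Dct, Pmel, Mlana, Slc45a2, Mitf, Sox10, Kit and Ednrb, in RNA from adult mouse aortic valves. They were chosen by name, and all 10 were among the 23107 genes with deposited counts. All 10 also passed the filter on low counts, 10 or more counts in no fewer than 3 of the 6 libraries, as did 15354 genes in all. The study compared valves of caAcvr1:Nfatc1Cre mutants with those of controls, to learn what continuous signaling of the BMP receptor AcvRI does to the valve. The 3 mutant libraries came from outbred mice aged 4 months that carried a constitutively active Acvr1 transgene, caAcvr1, which Cre switches on, together with Nfatc1Cre, a Cre inserted into the Nfatc1 locus. Nfatc1Cre recombines in the endocardium and its descendants and at the leaflet-wall junction. The 3 control libraries came from outbred mice of the same age. The labels call the controls wild type, whereas the study's control animals could carry either allele alone or neither, and which of these were sequenced is not given. Neither the sex of the mice nor the number of valves per library is given, so the p-values below measure only the spread between these libraries.

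Melanocytes arise from the neural crest and make melanin inside melanosomes, organelles related to lysosomes. Besides the skin and the hair follicle they settle in a few inner organs, the heart valves and the atria among them, where they are scattered cells. Mitf is the transcription factor that directs the lineage and binds short E-box sequences in the promoters of pigment genes. Sox10 acts upstream of it, and the receptors Kit and Ednrb carry the signals of Kit ligand and of endothelins that immature pigment cells need to migrate and survive.

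The promoters of the pigment enzymes carry the sequence that ties them to Mitf, and they are shown for that reason, with the promoter of Mitf itself. RefSeq promoter sequences of GRCm38.p6 were matched for 6 of the 10 genes, with 9 different start sites. Pmel, Mlana, Sox10 and Slc45a2 were not matched. The 250 bases before each start were searched on both strands for CATGTG and CACGTG, the E-boxes that Mitf binds, for TCATGTGCT, a longer form of the former known as the core of the M-box, and for TGACGTCA, the cyclic AMP response element. The longer form contains CATGTG, so each of its matches is also a match of CATGTG, and it was added to the search after the promoters had been read. Each sequence below runs from 5′ to 3′ on the strand of its gene and ends at the base before the start, with the matches in capitals.
Tyr, chr7:87493513-87493762, minus strand: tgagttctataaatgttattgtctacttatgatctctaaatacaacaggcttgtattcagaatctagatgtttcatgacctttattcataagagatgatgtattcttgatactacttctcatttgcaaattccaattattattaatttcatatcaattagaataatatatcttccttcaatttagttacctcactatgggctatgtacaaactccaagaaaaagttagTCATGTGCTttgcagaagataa
Tyrp1, chr4:80833963-80834212, plus strand: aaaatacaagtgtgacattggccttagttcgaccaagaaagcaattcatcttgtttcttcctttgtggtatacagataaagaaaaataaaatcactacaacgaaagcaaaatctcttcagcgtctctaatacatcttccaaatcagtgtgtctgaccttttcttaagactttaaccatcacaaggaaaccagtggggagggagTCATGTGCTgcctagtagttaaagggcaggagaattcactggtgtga
Dct, chr14:118052247-118052496, minus strand: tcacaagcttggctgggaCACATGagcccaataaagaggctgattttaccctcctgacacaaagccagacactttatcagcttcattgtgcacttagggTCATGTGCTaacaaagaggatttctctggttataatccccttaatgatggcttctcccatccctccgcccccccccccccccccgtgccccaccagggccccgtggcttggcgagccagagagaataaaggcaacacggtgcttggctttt
Mitf, start 3, chr6:97991533-97991782, plus strand: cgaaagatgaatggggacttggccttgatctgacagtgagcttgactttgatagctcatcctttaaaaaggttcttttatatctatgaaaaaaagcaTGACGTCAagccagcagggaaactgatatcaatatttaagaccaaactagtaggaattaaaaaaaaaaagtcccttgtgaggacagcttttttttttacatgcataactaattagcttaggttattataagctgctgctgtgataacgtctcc

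TCATGTGCT was in the promoters of all 3 melanin enzymes, Tyr, Tyrp1 and Dct, and in 0.332% of the 32536 RefSeq promoters searched. Counted from the start, with -1 as the last base before it, the M-box core lay from -22 to -14 in Tyr, from -47 to -39 in Tyrp1 and from -151 to -143 in Dct. Dct held a further CATGTG on the opposite strand from -232 to -227. Over all promoters CATGTG was in 12.3% and CACGTG in 6.04%. None of the 6 promoters matched for Mitf, Kit and Ednrb held any of these 3 forms. The third of the Mitf starts, which gives the form made in melanocytes, held TGACGTCA from -153 to -146, and that element was in 1.56% of all promoters. A match is a description of the letters and says nothing on whether Mitf was bound in these valves.

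The libraries held 32218343 to 55728854 fragments, and the members had between 16 counts, for Slc45a2 in control 2, and 5509, for Dct in a single library. Levels are given as CPM, counts scaled to a common library total after TMM normalization. Mutants and controls were compared with edgeR's two-sided quasi-likelihood test, with Benjamini-Hochberg adjustment over all 15354 genes. No gene had an adjusted p under 0.05 (0% of genes tested, smallest adjusted p 0.999), and 529 genes, 3.45%, had an unadjusted p under 0.05. DESeq2 called 26 genes at an adjusted p under 0.05, 21 higher and 5 lower in the mutants, with no melanocyte gene among them. Each adjusted p of the 10 members was 0.999 in edgeR. The differences below are therefore sizes with their errors, and none passed the adjusted test. In whole tissue, fewer cells of a type and less RNA per cell cannot be told apart.

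Libraries of the same group differed in tissue makeup. The summed level of 10 cardiac muscle markers was 33100, 12400 and 38300 CPM in controls 1, 2 and 3 and 40600, 18700 and 28700 CPM in mutants 1, 2 and 3. All 10 were detected, with Myh6 and Nppa the highest, so myocardium was present in every library. Transcripts of 4 Y-linked genes summed to 0.672 CPM in control 1 and 0.56 CPM in mutant 1, and to between 138 and 183 CPM in the other libraries. Smooth muscle markers summed to 14000 CPM in control 2 and to between 3860 and 7780 CPM elsewhere. Xist, made from the inactive X chromosome, was at 54.5 and 59.1 CPM in control 1 and mutant 1, at 0.297 and 0.631 CPM in controls 2 and 3, and at 19.7 and 11.7 CPM in mutants 2 and 3. Mutants 2 and 3 thus held both Xist and Y-linked transcripts.

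The melanin enzymes come first. Tyr encodes tyrosinase, the rate-limiting enzyme of melanin synthesis, on chromosome 7 from 87424771 to 87493512 (GRCm38). Tyr was at 4.80, 1.94 and 3.78 CPM in the controls and at 7.22, 5.82 and 4.27 CPM in the mutants. The lowest mutant lay below the highest control, so the groups overlapped. Between mutants and controls the log2 difference was 0.72 (SE 0.38, 95% interval -0.17 to 1.61, unadjusted p = 0.0982 in edgeR).

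Tyrp1, which encodes a melanosomal oxidase that acts after tyrosinase, lies on chromosome 4 from 80834123 to 80851719. It was at 20.1, 3.20 and 7.24 CPM in the controls and at 32.4, 17.5 and 12.9 CPM in the mutants. Control 1 lay among the mutants, and the other controls lay below all of them. Its log2 fold change of 1.04 (SE 0.66, 95% interval -0.51 to 2.59, unadjusted p = 0.156 in edgeR) was the largest of the 10 members, and 97.2% of the genes tested had a smaller change in size. It ran from 0.58 without mutant 1 to 2.01 without control 1.

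Dct encodes dopachrome tautomerase, the enzyme between tyrosinase and Tyrp1 in the pathway, on chromosome 14 from 118012790 to 118052244. Its level was 103, 10.4 and 40.5 CPM in the controls and 105, 46.1 and 23.6 CPM in the mutants. The range within the controls was almost as wide as that over all 6 libraries. The log2 fold change was 0.18 (SE 0.82, 95% interval -1.75 to 2.12), with a fitted direction that turned to -0.30 without control 2 and to -0.55 without mutant 1.

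Of the 15 ratios between pairs of the 6 melanosome genes, that of Dct to Tyrp1 was the only one whose groups did not overlap. It was 5.12, 3.25 and 5.59 in the controls and 3.23, 2.64 and 1.83 in the mutants, a gap of 3.25 against 3.23 between the nearest libraries. The exact permutation p was 0.1, the smallest that 3 libraries against 3 can give, and 0.75 after Benjamini-Hochberg adjustment over the 15 ratios.

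Pmel, Mlana and Slc45a2 serve the melanosome without making pigment. Pmel, on chromosome 10 from 128704195 to 128720238, encodes the protein of the fibrils on which melanin is laid down. Pmel was at 26.1, 2.25 and 8.78 CPM in the controls and at 25.6, 18.0 and 11.6 CPM in the mutants. Control 1 was above every mutant and control 2 lower than any other library. Its fitted change was 0.57 on the log2 scale (SE 0.76) and ran from 0.08 without control 2 to 1.74 without control 1. On the opposite strand 34 exonic bases of Cdk2 and 105 of Dgka overlap the exons of Pmel, 1.48% and 4.58% of its exonic bases, and whether the counting used strand is not given.

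Mlana, on chromosome 19 from 29697824 to 29708634, encodes MART-1, a melanosomal membrane protein that binds Pmel. It was at 8.15, 2.45 and 9.57 CPM in the controls and at 11.8, 4.93 and 8.66 CPM in the mutants. The groups overlapped, and the log2 fold change, 0.33 with SE 0.53, became -0.06 without control 2.

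Slc45a2, on chromosome 15 from 11000721 to 11029233, encodes a transporter of the melanosome membrane that pigmentation needs. It was at 2.48, 0.316 and 1.57 CPM in the controls and at 2.92, 2.45 and 1.92 CPM in the mutants. Control 2 was the lowest library again, and control 1 lay above mutants 2 and 3. The log2 fold change was 0.74 (SE 0.66), from 0.27 to 1.37 when a library was left out.

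**Figure D1:**
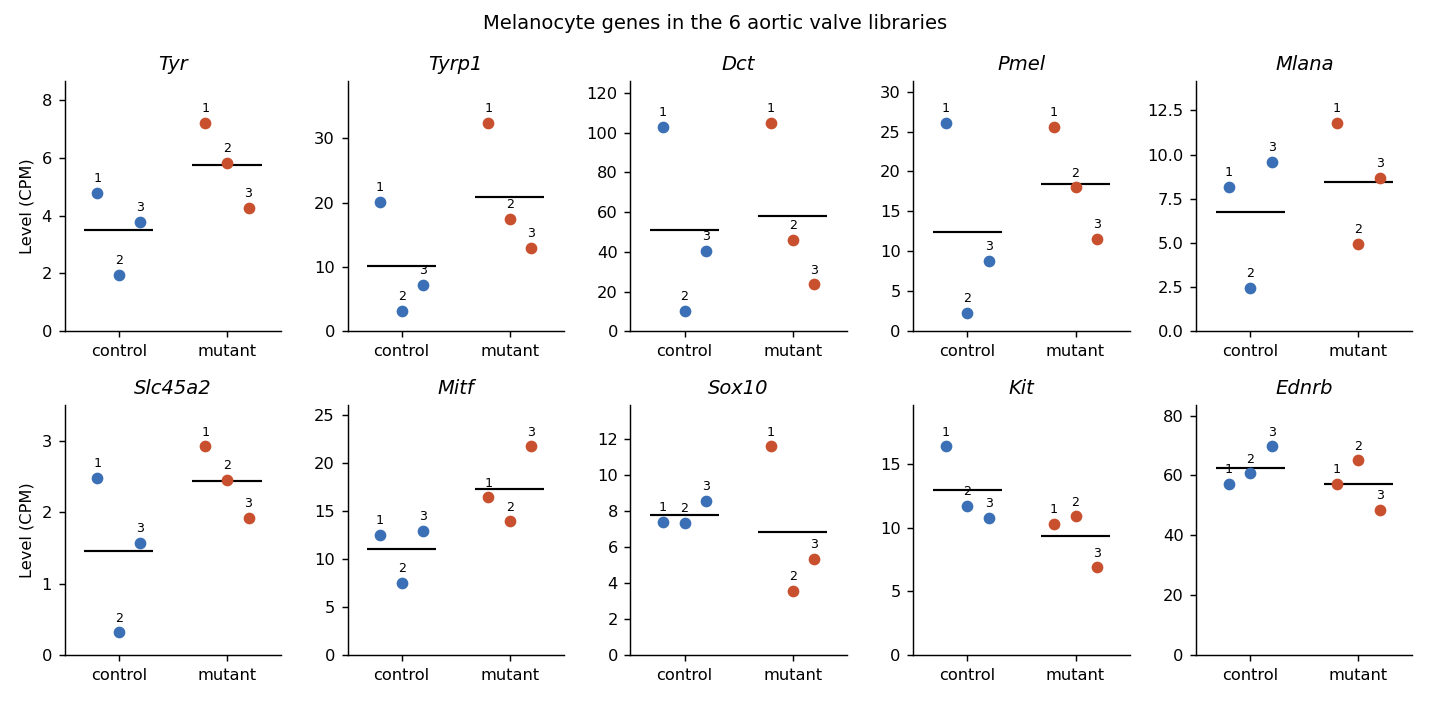
Level of each melanocyte gene in CPM (vertical axes, linear and starting at 0) in the 3 control libraries (blue) and the 3 mutant libraries (red), with the replicate number above each point and the group mean as a line. Control 2 is the lowest library for all 6 melanosome genes, Tyr to Slc45a2, and Mitf is the single gene whose mutants all lie above its controls.

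The regulators and receptors gave another picture. Mitf, on chromosome 6 from 97807052 to 98021349, was at 12.5, 7.50 and 12.9 CPM in the controls and at 16.4, 13.9 and 21.7 CPM in the mutants. All 3 mutants lay above all 3 controls, which held for no other member in either direction. Over all genes tested this was so for 4.04%, and the mutants lay below the controls for 4.83%. The exact permutation p for Mitf was 0.1, the smallest possible here. For Mitf the log2 fold change was 0.66 (SE 0.26, 95% interval 0.03 to 1.28, unadjusted p = 0.0412 and adjusted p = 0.999 in edgeR). It was the single member of 10 with an unadjusted p under 0.05, against 3.45% of all genes.

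Mitf is not particular to pigment cells, since mast cells and macrophages, for example, use it too, and 8 annotated transcripts share the one count here. Of 11 mast cell markers tested, 8 were higher in the mutants, and for Cpa3, Cma1, Fcer1a and Mrgprb1 all mutants lay above all controls. The mast cell markers summed to 230 to 272 CPM in the controls and 255 to 309 CPM in the mutants. Gata2, one of the 3 lower markers, was the largest part of each sum. It was at 157, 162 and 163 CPM in the controls and at 146, 183 and 123 CPM in the mutants. Sums without Gata2 were not computed, so the overlap of these sums does not show that the other markers overlapped. Of 10 macrophage and leukocyte markers all 10 were higher, 5 of them with groups that did not overlap, and their sums were 1320 to 1470 CPM in the controls and 1740 to 1900 CPM in the mutants. The part of these markers in the difference of Mitf between the groups was not tested. By root mean square distance between mean-centred log2 levels over the 6 libraries, where 0 is an identical pattern, Mitf lay 0.32 from the macrophage markers, 0.43 from 10 cardiac muscle markers, 0.42 from valve interstitial markers, 0.45 from the mast cell and from the Schwann cell markers and 0.68 from the 6 melanosome genes. A pattern with no variation would lie 0.46 from Mitf, so most of these distances single out no cell type.

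Sox10, on chromosome 15 from 79154908 to 79165240, drives Mitf in the pigment lineage and is also made by Schwann cells and other glia. It was at 7.41, 7.34 and 8.55 CPM in the controls and at 11.6, 3.54 and 5.34 CPM in the mutants. The mutants lay on both sides of the narrow range of the controls. The log2 fold change was -0.18 (SE 0.42), and it became 0.13 without mutant 2 and -0.81 without mutant 1 (unadjusted p = 0.0207 in edgeR, with an adjusted p of 0.974 to 1.0 over the fits that left out a library). Control 2, lowest for every melanosome gene, was close to control 1 for Sox10. Sox10 lay nearer to the Schwann cell and glia markers, at a distance of 0.54, than to the melanosome genes, at 1.01, but it lay as near to organelle genes of many cell types, at 0.53, and to a pattern with no variation, at 0.54.

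Kit, the receptor of Kit ligand on chromosome 5 from 75574916 to 75656722, was at 16.4, 11.7 and 10.8 CPM in the controls and at 10.3, 10.9 and 6.88 CPM in the mutants. Mutant 2 lay just above control 3, so the groups overlapped. The log2 fold change was -0.47 (SE 0.24, 95% interval -1.04 to 0.11, unadjusted p = 0.0959 in edgeR) and stayed negative whichever library was left out, from -0.59 to -0.27. Kit is also a defining receptor of mast cells, of whose other markers 8 of 11 had the opposite direction.

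Ednrb, on chromosome 14 from 103814625 to 103844402, encodes the endothelin receptor that melanocyte precursors carry and that endothelial cells carry as well. Its level was 57.1, 60.7 and 69.7 CPM in the controls and 57.3, 65.0 and 48.6 CPM in the mutants. The groups overlapped, and the log2 fold change was -0.13 (SE 0.14, 95% interval -0.46 to 0.19). Its pattern lay 0.15 from the endothelial markers and 0.96 from the melanosome genes. It lay as near, at 0.14, to the mean pattern of 23 organelle genes, and at 0.16 to a pattern with no variation, so the distances of Ednrb single out no cell type.

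**Figure D2:**
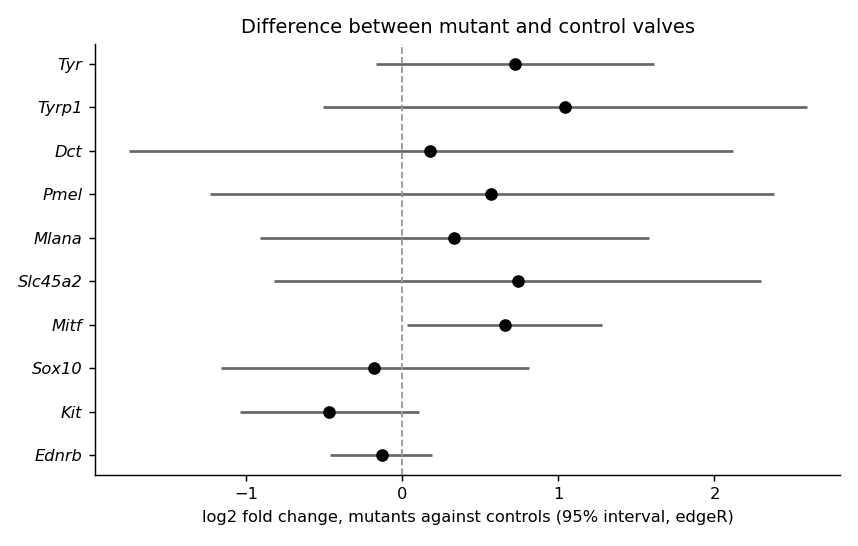
Log2 fold change of each melanocyte gene, mutants against controls (horizontal axis), with its 95% interval from edgeR. The interval of Mitf, 0.03 to 1.28, is the single one that leaves out 0, and that of Dct, from -1.75 to 2.12, is the widest.

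Counted together, 7 members had a higher and 3 a lower fitted level in the mutants, and the higher ones were the 6 melanosome genes and Mitf. The median log2 fold change was 0.45 over the 10 members and 0.64 over the 6 melanosome genes, against 0.01 over all genes tested, of which 52.2% were higher. These medians describe genes chosen by name that share much of their variation, so the 6 melanosome genes do not count as 6 separate observations. Control 2, whose levels of the melanosome genes stood below the rest, carried part of these differences. Without it the log2 fold change was 0.62 for Tyrp1, 0.45 for Mitf, 0.43 for Tyr, 0.27 for Slc45a2, 0.08 for Pmel, -0.06 for Mlana and -0.30 for Dct, and it was -0.53 for Kit, -0.21 for Sox10 and -0.15 for Ednrb. No member then had an unadjusted p under 0.05, Mitf included (unadjusted p = 0.0815 in edgeR). Without control 1, the control with the highest melanosome sum, the values moved the other way, to 2.01 for Tyrp1, 1.74 for Pmel, 1.37 for Slc45a2, 1.19 for Dct, 1.01 for Tyr, 0.76 for Mitf and 0.50 for Mlana. Then 4 members, Tyrp1, Pmel, Tyr and Mitf, had an unadjusted p under 0.05, and none passed the adjusted test.

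Per kilobase of exon, levels can be set against each other between genes. The mean over the 6 libraries was 14.0 ± 1.71 CPM per kilobase for Ednrb (SD, n = 6), 9.27 ± 6.79 for Dct, 7.19 ± 3.19 for Mlana, 6.72 ± 4.17 for Pmel and 5.50 ± 3.66 for Tyrp1. Sox10 followed at 2.39 ± 0.908 and Mitf at 2.29 ± 0.76, and Kit was at 1.25 ± 0.343. Tyr at 0.652 ± 0.254 and Slc45a2 at 0.651 ± 0.31 were the lowest per kilobase. Between neighbours in this order the sequence was not the same in every library, except that Kit lay above Tyr in 6 of 6. Dct lay above Mlana in 3 of 6 libraries and Tyr above Slc45a2 in 3 of 6, so neither pair had an order.

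The spread between libraries was the largest feature of the melanosome genes. The SD of log2 CPM over the 6 libraries was 1.32 for Pmel, 1.28 for Dct, 1.18 for Tyrp1, 1.12 for Slc45a2, 0.82 for Mlana and 0.64 for Tyr. Among all genes tested the median was 0.24 and the 90th percentile 0.77, so each of these but Tyr exceeded that percentile. Control 2 held the largest deviation of each of the 6 genes from its mean, from -2.375 for Pmel to -1.133 for Tyr on the log2 scale. These SDs therefore rest in good part on 1 library, and SDs without control 2 were not computed. Between the lowest and the highest library the level differed 11.6-fold for Pmel, 10.1-fold for Dct and for Tyrp1, and 1.44-fold for Ednrb. For Pmel, Dct and Tyrp1 the lowest library was control 2, at 2.25, 10.4 and 3.20 CPM. The next lowest was at 8.78, 23.6 and 7.24 CPM, so these folds rest in part on control 2. The SD was 0.59 for Sox10, 0.51 for Mitf, 0.40 for Kit and 0.18 for Ednrb, the last one below the median of all genes.

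The 6 melanosome genes varied together. Their summed level was 164, 20.6 and 71.4 CPM in controls 1, 2 and 3 and 184, 94.9 and 63.1 CPM in mutants 1, 2 and 3. Control 2 was lowest for all 6 genes, and mutant 1 was highest for 5 of them, with Pmel highest in control 1. Subtracting the mean of the other melanosome genes lowered the SD of Slc45a2 to 0.31, of Tyrp1 to 0.40, of Pmel to 0.43, of Tyr to 0.51, of Dct to 0.57 and of Mlana to 0.67. The same subtraction raised the SD of the regulators and receptors, to 0.75 for Mitf, 1.05 for Ednrb, 1.06 for Kit and 1.10 for Sox10. Such a rise is bound to follow for Kit and Ednrb, whose SDs were 0.40 and 0.18 against 1.01 for the mean melanosome pattern. It therefore does not show that Kit and Ednrb varied independently of the melanosome genes. Mitf, with an SD of 0.51, was near the limit at which a rise is certain, so its rise shows little. For Sox10, with an SD of 0.59, a rise was not bound to follow, so Sox10 did not follow the melanosome pattern closely in these libraries. Mitf, too, was lowest in control 2.

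**Figure D3:**
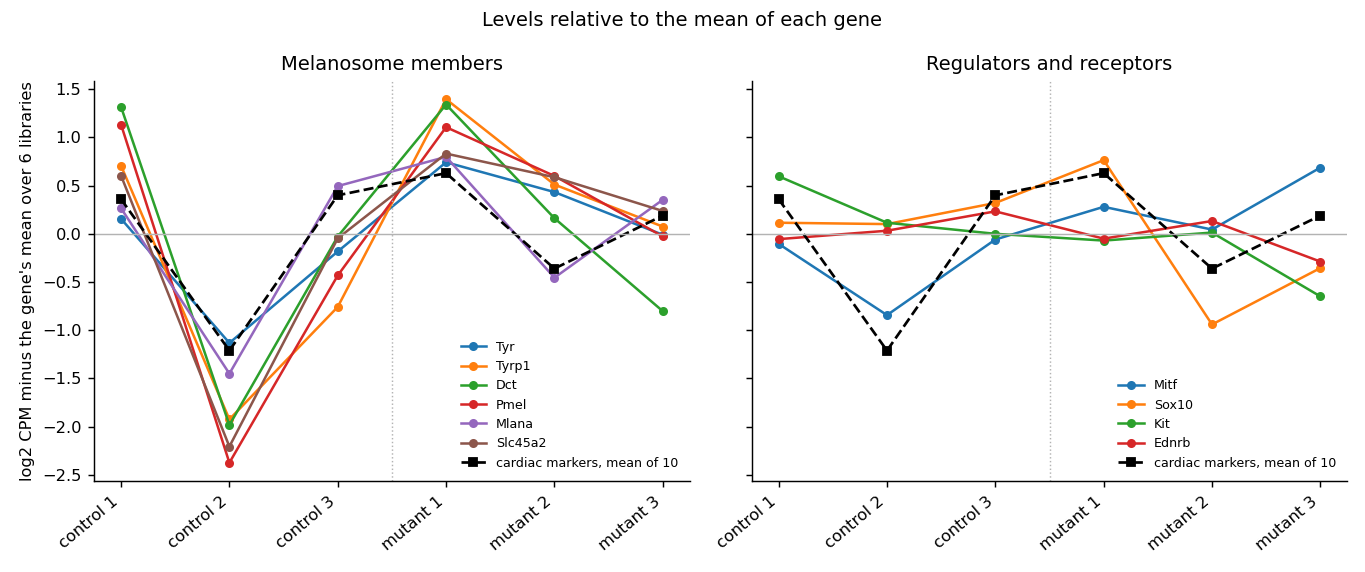
Log2 CPM of each gene minus its mean over the 6 libraries (vertical axis) in each library (horizontal axis), for the 6 melanosome genes on the left and the regulators and receptors on the right, with the mean of 10 cardiac muscle markers as a dashed line on both. The melanosome genes drop together in control 2, where Pmel is lowest, and the other 4 members do not share that drop to the same depth.

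Genes outside the members were ranked by the distance of their centred pattern from the mean pattern of the 6 melanosome genes, and 15344 genes entered. The 10 nearest were Murc (0.119), Ppifos (0.181), Scube2 (0.186), Xirp2 (0.192), Lrrc2 (0.194), 2310020H05Rik (0.197), Fhl2 (0.200), Fabp3 (0.202), Crybb1 (0.211) and Fam134b (0.222). Murc, Xirp2, Fhl2 and Fabp3 are known from striated muscle, the heart included. Murc was at 33.1, 6.21 and 20.4 CPM in the controls and at 38.6, 29.2 and 19.3 CPM in the mutants. A gene that did not vary would lie at 0.92, and 261 genes lay nearer than 0.5.

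Most of the cardiac muscle markers moved with the melanosome genes. The mean pattern of all 10 markers lay 0.50 from that of the melanosome genes, with 7 of the 10 markers nearer than 0.5. Nppa, at 1.261, and Myl7, at 1.103, lay farther away than a gene with no variation, at 0.92. Among the lists a further set of 11 pigment cell genes was the nearest, at 0.44, with 3 of the 11 nearer than 0.5, while macrophage markers lay at 0.81, Schwann cell markers at 1.02, endothelial markers at 1.07 and smooth muscle markers at 1.39. The melanosome genes summed to 4.96, 1.65 and 1.86 CPM per 1000 CPM of cardiac markers in the controls and to 4.55, 5.07 and 2.2 in the mutants. That ratio still differed between libraries of a group, and the groups overlapped. Subtracting the mean of the cardiac markers lowered the SD of the mean melanosome pattern from 1.01 to 0.55. Control 2 was lowest in both patterns, at -1.85 for the centred melanosome genes and at a mean log2 CPM of 9.5 for the cardiac markers. Among the other libraries control 3 was lowest for the melanosome genes, at -0.16, and mutant 2 for the cardiac markers, at 10.35. The distance and the SD without control 2 were not computed.

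Mlana stood apart from the other melanosome genes in its nearness to the cardiac markers. Its SD fell from 0.82 to 0.17 once the cardiac markers were subtracted, while that of Pmel became 0.88, of Dct 0.83, of Tyrp1 0.82, of Slc45a2 0.66 and of Tyr 0.46. Mlana lay 0.15 from the cardiac markers and 0.61 from the other melanosome genes. Tyrp1, Slc45a2, Pmel and Dct lay nearer to the other melanosome genes, at 0.36, 0.29, 0.39 and 0.52, than to the cardiac markers, at 0.75, 0.60, 0.80 and 0.76. Tyr was about as near to either, at 0.47 and 0.42, and nearer to the further set of 11 pigment cell genes, at 0.24.

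**Figure D4:**
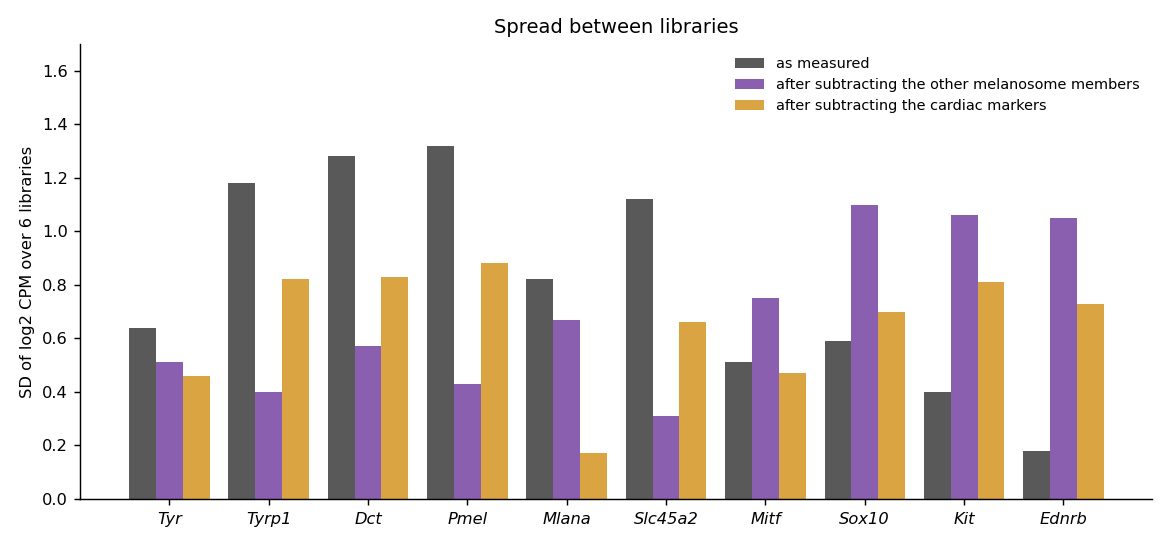
SD of log2 CPM over the 6 libraries (vertical axis, bars from 0) for each melanocyte gene as measured (grey), after subtracting the mean of the other melanosome genes (purple) and after subtracting the mean of the cardiac muscle markers (yellow). The purple bar is below the grey bar for the 6 melanosome genes and above it for Mitf, Sox10, Kit and Ednrb, and the yellow bar of Mlana is the lowest of its set at 0.17.

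With the cardiac marker mean as a covariate in edgeR, an alternative chosen after seeing the data, the log2 fold change was 0.90 for Tyrp1, 0.77 for Slc45a2, 0.62 for Tyr, 0.61 for Pmel, 0.56 for Mitf, 0.10 for Mlana and 0.05 for Dct. It was -0.40 for Sox10, against -0.18 without the covariate, -0.48 for Kit and -0.13 for Ednrb. Without the covariate the values had been higher for Tyrp1, Tyr, Mitf, Mlana and Dct, at 1.04, 0.72, 0.66, 0.33 and 0.18. For Slc45a2 and Pmel they had been slightly lower, at 0.74 and 0.57. No member passed the adjusted test with the covariate.

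The libraries with under 1 CPM of Y-linked transcripts, control 1 and mutant 1, were those with the highest melanosome sums. Between them Tyrp1 was at 20.1 and 32.4 CPM, and among the other 4 libraries the controls were at 3.20 and 7.24 CPM and the mutants at 17.5 and 12.9 CPM. Tyr and Slc45a2, too, were higher in the mutants within each of these sets, whereas Dct and Mlana overlapped among the 4 libraries and Pmel was slightly lower in mutant 1 than in control 1. With Y-linked transcripts above 1 CPM or not as a covariate, also chosen after seeing the data, the log2 fold change was 1.25 for Tyrp1 (unadjusted p = 0.0114, adjusted p = 0.983 in edgeR), 0.94 for Pmel, 0.88 for Slc45a2, 0.74 for Tyr, 0.31 for Dct and 0.30 for Mlana. It was 0.66 for Mitf, whose unadjusted p became 0.0526, and -0.34 for Sox10, -0.45 for Kit and -0.13 for Ednrb.

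Further pigment cell genes were read from a list of 11, all of which were tested. Of these 8 were higher and 3 lower in the mutants, with a median log2 fold change of 0.43, and none had an unadjusted p under 0.05 or groups that did not overlap. The nearest to the melanosome genes were Slc24a5 and Trpm1. Slc24a5, a cation exchanger of the melanosome, was at 1.96, 0.475 and 1.07 CPM in the controls and at 2.32, 2.33 and 1.16 CPM in the mutants, and ranked 32nd of 15344 genes at a distance of 0.304. Trpm1, a channel gene whose intron hosts a microRNA of the pigment lineage, was at 3.19, 0.672 and 1.09 CPM in the controls and at 3.76, 3.16 and 1.66 CPM in the mutants, and ranked 55th at 0.355.

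Mc1r, the melanocortin receptor that sets the type of melanin, ranked 192nd at 0.463 although no library had more than 0.386 CPM of it. Gpr143, a receptor inside pigment cells, had a log2 fold change of 1.02 (SE 0.73) at levels of up to 1.16 CPM. Gpnmb, a glycoprotein of melanosomes that macrophages also make, had the highest level per kilobase of the list, 4.29 CPM, and was at 38.3, 14.6 and 21.6 CPM in the controls and 32.2, 29.2 and 31.9 CPM in the mutants. Control 2 was the lowest library for 7 of the 11 genes, Slc24a5, Trpm1, Mc1r, Gpr143, Gpnmb, Tspan10 and Cited1, and not for Oca2, Pax3, Mlph and Slc24a4. This was not particular to pigment cell genes. Control 2 was also lowest for 8 of 10 cardiac muscle markers and 8 of 10 macrophage and leukocyte markers, but for 0 of 10 endothelial markers. The share over all genes tested was not counted. Oca2, which did not pass 0.946 CPM, was the farthest from the melanosome genes at 1.439, beyond a gene with no variation, and Tspan10, Cited1, Pax3, Slc24a4 and Mlph lay at a distance of over 0.7 from the melanosome genes. RefSeq promoters were matched for 9 of the 11 genes, with 12 starts, of which 6 held CATGTG, 3 CACGTG and none the longer TCATGTGCT.

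Genes that build and move lysosome-related organelles in many cell types had a mean pattern 0.93 from that of the melanosome genes, about as far as a gene with no variation. Of 23 tested, 13 had a higher and 10 a lower level in the mutants, their median log2 fold change was 0.00, and their summed level stayed within 662 to 693 CPM over the 6 libraries. Mreg, whose product works in melanosome transport, was the nearest at 0.456, with 21.1, 7.18 and 14.4 CPM in the controls and 22.6, 12.3 and 11.7 CPM in the mutants. Dtnbp1 and Cno, both subunits of a sorting complex of these organelles, had the highest levels per kilobase, 25.9 and 23.6 CPM.

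Ligands and upstream regulators of melanocytes were read from a further list. Of 23 genes on this list 22 had counts and 21 were tested, Edn2 being too low, with 11 higher, 10 lower and a median log2 fold change of 0.01. Ece1, the enzyme that releases active endothelins, and Sox9 were highest per kilobase, at 200 and 22.2 CPM. Kitl, the ligand of Kit, was at 51.6, 50.8 and 62.7 CPM in the controls and at 51.9, 74.7 and 55.9 CPM in the mutants, with a log2 fold change of 0.14 (SE 0.16). Edn3, the endothelin of melanocyte development and a ligand of Ednrb, was at 2.35, 0.929 and 1.17 CPM in the controls and at 1.97, 2.0 and 1.26 CPM in the mutants. Per kilobase Edn3 had a mean level of 0.392 CPM over the 6 libraries and Kitl 9.8 CPM. Control 2, where the melanosome genes were lowest, was also the lowest library for 6 of the 21 genes, Kitl, Edn3, Ednra, Lef1, Sox9 and Sox5. Edn3 lay 0.564 from the melanosome pattern and Ednra 0.663, both nearer than a gene with no variation. Edn1 was highest in control 2, with 60.6 CPM against 17.4 to 24.8 CPM elsewhere. None of these ligands had groups that did not overlap.

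Markers of skin, where most melanocytes live, were read beside these values. The 10 keratinocyte markers summed to 20.7, 33.5 and 28.9 CPM in the controls and to 14.9, 18.1 and 22.7 CPM in the mutants. Krt14 and Krt10 carried most of these sums, and without Krt14 the other 9 markers summed to 15.5, 13.9 and 17.2 CPM in the controls and to 13.8, 14.0 and 18.2 CPM in the mutants. Krt14, a keratin of basal keratinocytes, was at 5.21, 19.6 and 11.7 CPM in the controls and at 1.12, 4.12 and 4.46 CPM in the mutants, all of which lay below the controls (log2 fold change -1.92, SE 0.64, unadjusted p = 0.0195 and adjusted p = 0.999 in edgeR). Krt10, a keratin of the upper epidermis, was at 8.27 to 11.9 CPM over the 6 libraries. Lor was at 1.59 to 3.19 CPM, Sfn at 0.792 to 1.89 CPM, Trp63 at 0.578 to 1.85 CPM and Krt1 at 0.618 to 1.46 CPM. Krt5, the partner of Krt14, did not pass 0.283 CPM in any library, Krt15 did not pass 0.251 CPM, and Dsg3 and Krtdap were at no more than 0.0772 and 0.0746 CPM. Of the 10, 6 passed the filter on low counts, and the distance of their mean pattern from the melanosome genes was 1.16. Schwann cell and glia markers, of which 14 were tested, had 10 higher and 4 lower members with a median log2 fold change of 0.17. Their sums were 146 to 171 CPM in the controls and 141 to 187 CPM in the mutants.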

How the data were processed

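The authors sequenced TruSeq libraries of aortic valve RNA, 3 from controls and 3 from mutants, at 4 months of age. The deposited values are estimated counts, fragments that the authors assigned to genes with Cuffdiff, not scaled for library size. The submitters' processing notes name mm10, TopHat2 2.0.13, Bowtie2 2.2.1 and Cuffdiff 2.1.1. Between 1.66% and 1.87% of values per library were not whole and were rounded. Columns were assigned to samples by their description. Multi-mapped and overlapping fragments were shared by the authors' counting in a way that is not given in the sources used here.

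Genes with 10 or more counts in no fewer than 3 libraries were tested in R 4.3.3 with edgeR 4.0.16 (TMM, quasi-likelihood F test, no covariates, threshold 0.05). Standard errors were computed from the fold change and the F statistic, and log2 CPM used a prior count of 2. A count of 0 allows a level of up to 3 counts, or 0.0538 to 0.0931 CPM by library, which covers counting error only. Alternatives were DESeq2 1.42.0 (also its size factors), other filters, limma-voom with sample weights (limma 3.58.1), a replicate block and leaving out each library, with 2 covariate fits added after seeing the data. The fit was tested on simulated data.

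Levels per kilobase used the union of exons in GENCODE M21 (GRCm38), which also gave positions, and 98.0% of genes matched. The members and gene lists were chosen with earlier results of these data known. By the rule, the text names the members, the pigment cell list, the highest genes per kilobase of the organelle and ligand lists and those whose groups do not overlap (none), markers with the highest level of each cell type, and the 10 genes nearest in pattern to the 6 melanosome genes. Some genes that meet it are left out, and Myl7 was picked after its values were seen. Cpa3, Cma1, Fcer1a, Mrgprb1, Xist, Mreg, Kitl, Edn1, Edn2, Edn3, Ednra, Lef1, Sox5 and the keratinocyte markers other than Krt10 and Krt14 were picked after their values were seen.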

Additional observations from a re-analysis of the deposited data

How the results depend on the processing

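No melanocyte gene passed the adjusted test under any of the 14 alternatives, 12 planned and 2 added after seeing the data, and the smallest adjusted p of a member was 0.901. The count of genes called over the whole table was 0 under each alternative, from 0 to 0 when a library was left out, except with DESeq2, which called 26, and the cause was not tested. The direction of the fold change was kept in 134 of 139 values of single members. It turned for Dct with limma-voom and sample weights (-0.12), without control 2 (-0.30) and without mutant 1 (-0.55), for Mlana without control 2 (-0.06) and for Sox10 without mutant 2 (0.13). When a library was left out, the log2 fold change ran up to 1.19 for Dct and 0.68 for Mlana and down to -0.81 for Sox10. That of Mitf ran from 0.45 without control 2 to 0.79. The number of members with an unadjusted p under 0.05 was 1 in the reported fit, 4 without control 1, and 0 without control 2, without mutant 3 and with sample weights. It was 1 with the Y-linked covariate, then Tyrp1 in place of Mitf, and 1 without mutant 1, then Sox10. Slc45a2 had too few counts for the filter of a mean count of at least 100.

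The replicate numbers of the labels were checked as a pairing. Deviations of same-numbered libraries from their group means correlated at 0.29, 0.08 and 0.03, against -0.27 to 0.20 for libraries of different numbers. Deviations from a mean of 3 libraries depend on one another, so these values cannot decide whether the numbers mark pairs. Control 1 and mutant 1 also shared low Y-linked sums, 0.672 and 0.56 CPM. With the replicate block 0 genes and 0 members were called. Then 3 members, Mitf, Tyrp1 and Kit, had an unadjusted p under 0.05 in edgeR, with log2 fold changes of 0.67, 1.30 and -0.47. The log2 fold change was 1.03 for Pmel and 1.05 for Slc45a2, whose unadjusted p stayed above 0.05. With 3 libraries a group and standard errors of 0.38 to 0.82 on the log2 scale, the intervals of the melanosome genes admit changes of over 1.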
